A study of Mus musculus with 32 samples.

Results

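Aminoacyl-tRNA synthetases are the enzymes that attach each amino acid to its transfer RNA, the step that supplies charged tRNA to the ribosome. The members described here are 39 of the 56246 genes in the count table, chosen by name and role: 20 genes of cytosolic enzymes or their subunits, 3 genes of partner proteins of the multisynthetase complex (Aimp1, Aimp2 and Eef1e1) and 16 genes of mitochondrial enzymes. The family was taken up with earlier results on AC220 in these libraries known, so counts of members that changed with AC220 in LSK cells are given as a description. All 39 members passed the filter on low counts in every fit.

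The libraries came from sorted bone marrow cells of C57BL/6 mice that carry a transgenic FLT3-ITD, an activated form of the FLT3 receptor kinase, and every group, vehicle included, carries it. The 8 groups were LSK cells (a gate for hematopoietic stem and early progenitor cells) or granulocyte-macrophage progenitors (GMP) after treatment in vivo with the combination of Lys05 and AC220, with AC220 alone, with Lys05 alone or with vehicle, with 4 libraries in each group. AC220 (quizartinib) inhibits the FLT3 kinase, and Lys05 inhibits the lysosome and thereby autophagy. The labels give neither dose, duration, age nor batch, and do not say whether mice were pooled or whether LSK and GMP libraries came from the same mice.

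Cytosolic enzymes charge tRNA for nuclear-encoded proteins and mitochondrial enzymes, also nuclear-encoded, charge tRNA for the proteins made inside the organelle. Gars and Kars each encode the enzyme of both compartments and are counted as cytosolic throughout. In mammals, 8 of the 20 cytosolic genes listed (Dars, Eprs, Iars, Kars, Lars, Mars, Qars and Rars) encode subunits of the multisynthetase complex, which Aimp1, Aimp2 and Eef1e1 hold together. When charging falls short, uncharged tRNA activates the kinase GCN2, and translation of the factor ATF4 increases. ATF4 raises transcription of amino acid synthesis, transport and synthetase genes through an element with the core TGATGNAA.

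That core was searched on both strands in RefSeq promoters of build GRCm38.p6, from 250 bases before to 50 after the start site. Promoters were matched for 30 of the 39 members. The core was in 5 of 13 cytosolic promoters, 0 of 14 mitochondrial promoters and 0 of 3 partner promoters, and in 4.51% of the promoters of 27025 genes. Windows are shown because they mark which members carry the letters of this element, with the core in capitals and 10 bases on each side, 5′ to 3′ on the strand of the gene.
Yars, chr4:129189896-129189923, plus strand: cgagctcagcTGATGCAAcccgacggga
Gars, chr6:55037961-55037988, plus strand: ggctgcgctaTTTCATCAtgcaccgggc
Aars, chr8:111033841-111033868, plus strand: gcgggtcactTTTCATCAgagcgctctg
Iars, chr13:49682127-49682154, plus strand: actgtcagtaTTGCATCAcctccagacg
Tars, chr15:11399656-11399683, minus strand: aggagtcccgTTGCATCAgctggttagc
The core lay on the gene's own strand in Yars and on the opposite strand in the other windows shown. Aars held a second core, 112 bases before the start site and also on the opposite strand, whose window is not shown. A match of letters is a description of the promoter and not of binding.

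The libraries held 35668279 to 55867441 gene counts. In LSK, transcripts under 1000 bases took 11.7 to 15.9% of gene counts with the combination and 11.1 to 12.1% with AC220, against 25.2 to 28.9% with Lys05 and 28.1 to 29.6% with vehicle. In GMP this share was 21.1 to 34.0% over the 16 libraries. Contrasts were therefore also fitted with an offset for transcript length and GC content in each library, and its values are given beside the main ones where stated. GMP combination library 3 stood apart, with a median rank correlation of 0.577 with its own group, against 0.775 to 0.975 for the other 15 GMP libraries and 0.931 to 0.992 for the LSK libraries. Genes that define the gates followed the labels. The 8 LSK gate markers summed to 475 to 1383 CPM (gene counts scaled to a common library total, here over all 32 libraries) in LSK and 83.4 to 302 in GMP. The 8 GMP gate markers summed to 24590 to 98800 CPM in GMP and 2617 to 8008 in LSK.

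In LSK, AC220 went with higher levels of most synthetase genes of both compartments and lower levels of the 3 complex partners. Of 39 members, 24 rose and 5 fell (edgeR's quasi-likelihood test, Benjamini-Hochberg adjusted p under 0.05 over 15730 genes). That is 74.4% of the members, and 54.9% of all genes tested were called, 29.4% higher and 25.5% lower. The median log2 fold change was 0.88 over the members and 0.09 over all genes. With the length and GC offset 12 members were higher and 9 lower, against a background of 43.5% called, and the member median was 0.11 against 0.06 for all genes. The members called in the same direction in both fits were 14, namely 11 higher (Farsa, Wars, Mars, Iars, Farsb, Hars, Mars2, Pars2, Hars2, Iars2 and Cars2) and 3 lower (Nars, Aimp2 and Eef1e1).

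Among cytosolic enzymes 12 of 20 rose and 1 fell, with a median log2 fold change of 0.79. The member with the largest fold was Farsa (ENSMUSG00000003808, chr8:84856989-84869257, GRCm38), which encodes the catalytic alpha subunit of phenylalanyl-tRNA synthetase. Farsa had 196, 274, 304 and 239 CPM with AC220, against 34.6, 29.4, 44.1 and 43.5 CPM with vehicle. The groups did not overlap. The log2 fold change was 2.74 ± 0.25 (SE, n = 4 each, edgeR adjusted p = 1e-07), and 2.30 ± 0.17 with the offset. The gene of the beta subunit of the same enzyme, Farsb, had 125, 135, 137 and 134 CPM with AC220, against 63.8, 86.9, 79.7 and 102 CPM with vehicle. Its log2 fold change was 0.68 ± 0.15 (edgeR adjusted p = 0.000975), and 0.73 ± 0.11 with the offset. The enzyme holds equal numbers of the subunits as protein, which was not measured here. The RNA ratio of Farsa to Farsb, in CPM per kilobase of transcript without the offset, was 2.12 ± 0.317 with AC220 and 0.519 ± 0.114 with vehicle (SD, n = 4 each). The lowest ratio with AC220 was 1.75 and the highest with vehicle 0.617. In GMP it ran from 0.0472 to 2.74 with AC220 and from 0.922 to 21.7 with vehicle.

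Wars (chr12:108860030-108894174), the tryptophanyl enzyme, had 153, 164, 154 and 147 CPM with AC220, against 26.8, 40.5, 36.6 and 30.6 CPM with vehicle. Its log2 fold change was 2.2 ± 0.17 (edgeR adjusted p = 9.04e-09), and 1.99 ± 0.16 with the offset. Wars overlaps Wdr25 on the opposite strand by 544 bases. Mars, the methionyl enzyme that also charges the initiator tRNA, had 165, 215, 203 and 194 CPM with AC220, against 38.2, 39.3, 59.2 and 62.0 CPM with vehicle. Mars rose by 1.97 ± 0.21 on the log2 scale (edgeR adjusted p = 7.89e-07) and by 0.75 ± 0.18 with the offset. Iars, the isoleucyl enzyme, had 137, 163, 136 and 148 CPM with AC220, against 54.1, 50.5, 38.6 and 43.2 CPM with vehicle. Iars rose by 1.65 ± 0.18 (edgeR adjusted p = 7.54e-07), and by 0.90 ± 0.15 with the offset. Each of these 3 genes had non-overlapping groups.

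Other cytosolic members rose in the main fit and were not called with the offset. They were Cars (1.91 ± 0.33), Yars (1.56 ± 0.31), Vars (1.36 ± 0.15), Aars (1.35 ± 0.22), Sars (1.249 ± 0.165) and Gars (0.82 ± 0.18), whose log2 fold changes with the offset lay between -0.10 (Vars) and 0.68 (Cars). Vars, the valyl enzyme, which had the highest CPM of the cytosolic members with AC220, had 695, 631, 564 and 568 CPM with AC220, against 283, 239, 216 and 218 CPM with vehicle. Nars, the asparaginyl enzyme, was the cytosolic gene that fell. Nars had 213, 239, 228 and 231 CPM with AC220, against 577, 417, 313 and 302 CPM with vehicle, and its groups did not overlap. Its log2 fold change was -0.82 ± 0.20 (edgeR adjusted p = 0.00236), and -1.40 ± 0.18 with the offset.

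**Figure D1:**
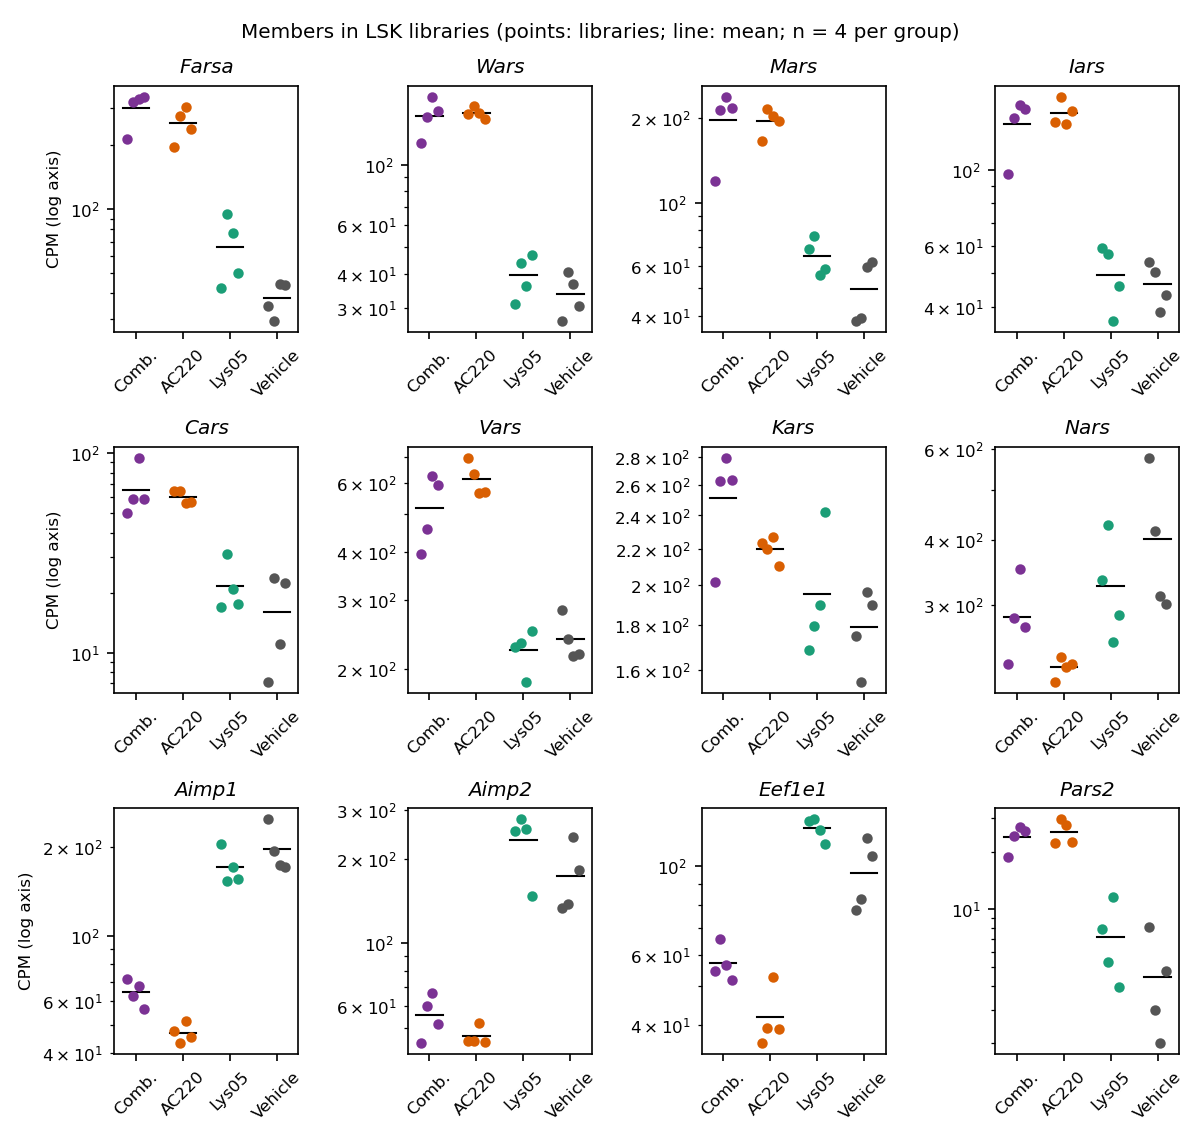
CPM (log axis, own range in each panel) of 12 members in the LSK libraries by treatment, with points for libraries and a line for the mean of 4. Farsa, Wars, Mars, Iars, Cars, Vars and Pars2 lie higher in all combination and AC220 libraries than in any Lys05 or vehicle library, and Aimp1, Aimp2 and Eef1e1 lie lower.

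The cytosolic enzymes were also divided by whether the protein sits in the multisynthetase complex, a division made after the values were seen. Of the 8 genes of enzymes in the complex, 2 rose (Iars and Mars) and 0 fell, with a median log2 fold change of 0.26. Of the 12 outside it, 10 rose and 1 (Nars) fell, with a median of 1.30. The shares called were 25% in the complex and 91.7% outside it, beside 54.9% of all genes tested. Dars (0.35 ± 0.20), Eprs (0.23 ± 0.12), Kars (0.30 ± 0.13), Lars (-0.25 ± 0.13), Qars (-0.03 ± 0.15) and Rars (-0.30 ± 0.14) did not pass the test with AC220. With the offset 3 of the 8 were higher and 4 lower, and of the 12 outside the complex 4 were higher and 2 lower. In that fit 43.5% of all genes were called, and the share called was larger in the complex than outside it, the reverse of the main fit. Kars, the lysyl enzyme, had 223, 220, 227 and 210 CPM with AC220, against 175, 155, 197 and 190 CPM with vehicle, a log2 fold change of 0.30 ± 0.13 (edgeR adjusted p = 0.0621).

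The 3 partner genes fell. Aimp1 (chr3:132660499-132684370), a scaffold protein of the complex that is also secreted as the precursor of the cytokine EMAP II, had 47.6, 43.3, 51.7 and 45.6 CPM with AC220, against 248, 193, 173 and 171 CPM with vehicle. Its log2 fold change was -2.06 ± 0.14 (edgeR adjusted p = 3.31e-09). With the offset Aimp1 had -0.36 ± 0.16 and was not called (edgeR adjusted p = 0.0816). Aimp2, the scaffold on which the complex assembles, had 44.9, 45, 52.1 and 44.7 CPM with AC220, against 134, 138, 239 and 184 CPM with vehicle. Aimp2 fell by 1.90 ± 0.21 on the log2 scale (edgeR adjusted p = 1.23e-06), and the offset gave -0.71 ± 0.14. Eef1e1, which encodes the smallest partner (AIMP3), had 36.1, 39.5, 52.8 and 39.1 CPM with AC220, against 77.8, 82.7, 117 and 106 CPM with vehicle. Eef1e1 fell by 1.20 ± 0.15 (edgeR adjusted p = 5.33e-06), and the offset gave -1.34 ± 0.14. Groups did not overlap for any of the 3 genes. Aimp1 and Aimp2 have the shortest transcripts of all members, 1126 and 1185 bases, and Eef1e1 has 2553. Aimp2 overlaps Eif2ak1 on the opposite strand by 1548 bases, and the strand setting of the counting is not stated.

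Among mitochondrial enzymes 12 of 16 rose and 1 (Rars2) fell, with a median log2 fold change of 0.97. With the offset 5 were called higher and 1, Vars2, lower, Rars2 was not called, and the median was 0.35. Pars2, the mitochondrial prolyl enzyme, had 22.2, 29.6, 27.6 and 22.6 CPM with AC220, against 8.07, 2.995, 2.003 and 4.76 CPM with vehicle. Pars2 rose by 2.51 ± 0.39 (edgeR adjusted p = 3.81e-05), and by 1.57 ± 0.38 with the offset. Mars2 had 21.4, 14.4, 16.6 and 17.7 CPM with AC220, against 4.37, 3.97, 3.21 and 4.91 CPM with vehicle. Mars2 rose by 2.09 ± 0.35 (edgeR adjusted p = 8.75e-05). Its offset value of 2.95 ± 0.41 rests on an annotated transcript of 11294 bases, the longest of the members.

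Hars2 (1.71 ± 0.24), Tars2 (1.27 ± 0.28), Iars2 (1.21 ± 0.26), Sars2 (1.19 ± 0.36), Nars2 (1.004 ± 0.339), Cars2 (0.93 ± 0.13), Vars2 (0.90 ± 0.22), Ears2 (0.88 ± 0.21) and Aars2 (0.83 ± 0.28) rose less. Cars2 overlaps Naxd on the opposite strand by 984 bases, with a mean count of 1150 for Cars2 and 6174 for Naxd. Iars2 overlaps Rab3gap2 on the opposite strand by 2034 bases, with mean counts of 2790 and 2100. Hars and Hars2 overlap each other on opposite strands by 198 bases. Vars2 turned to -0.51 ± 0.20 with the offset and was then called lower (edgeR adjusted p = 0.0438), and Aars2 turned to -0.66 ± 0.27 and was not called. Fars2, Wars2 and Yars2 had log2 fold changes between 0.08 (Yars2) and 0.41 (Fars2) and did not pass. Rars2 had 31.98, 47.6, 43.2 and 38.7 CPM with AC220, against 58.3, 52.4, 101 and 87.2 CPM with vehicle (-0.89 ± 0.22, edgeR adjusted p = 0.00249). The offset gave -0.29 ± 0.15 for Rars2, which was not called.

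Lars2, the mitochondrial leucyl enzyme, had the highest CPM of the members with AC220 in LSK and a wide spread over libraries. Lars2 had 3129, 1066, 2055 and 2003 CPM with AC220, against 523, 539, 273 and 282 CPM with vehicle, and rose by 2.35 ± 0.52 (edgeR adjusted p = 0.00108). With the offset it had 1.34 ± 0.53 and was not called (edgeR adjusted p = 0.0506). Lars2 made up 60.5 to 84.9% of the summed mitochondrial CPM with AC220 and 41.5 to 60.7% with vehicle, so sums over mitochondrial enzymes are given without it. Whether the counts of Lars2 hold reads from another source was not tested.

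**Figure D2:**
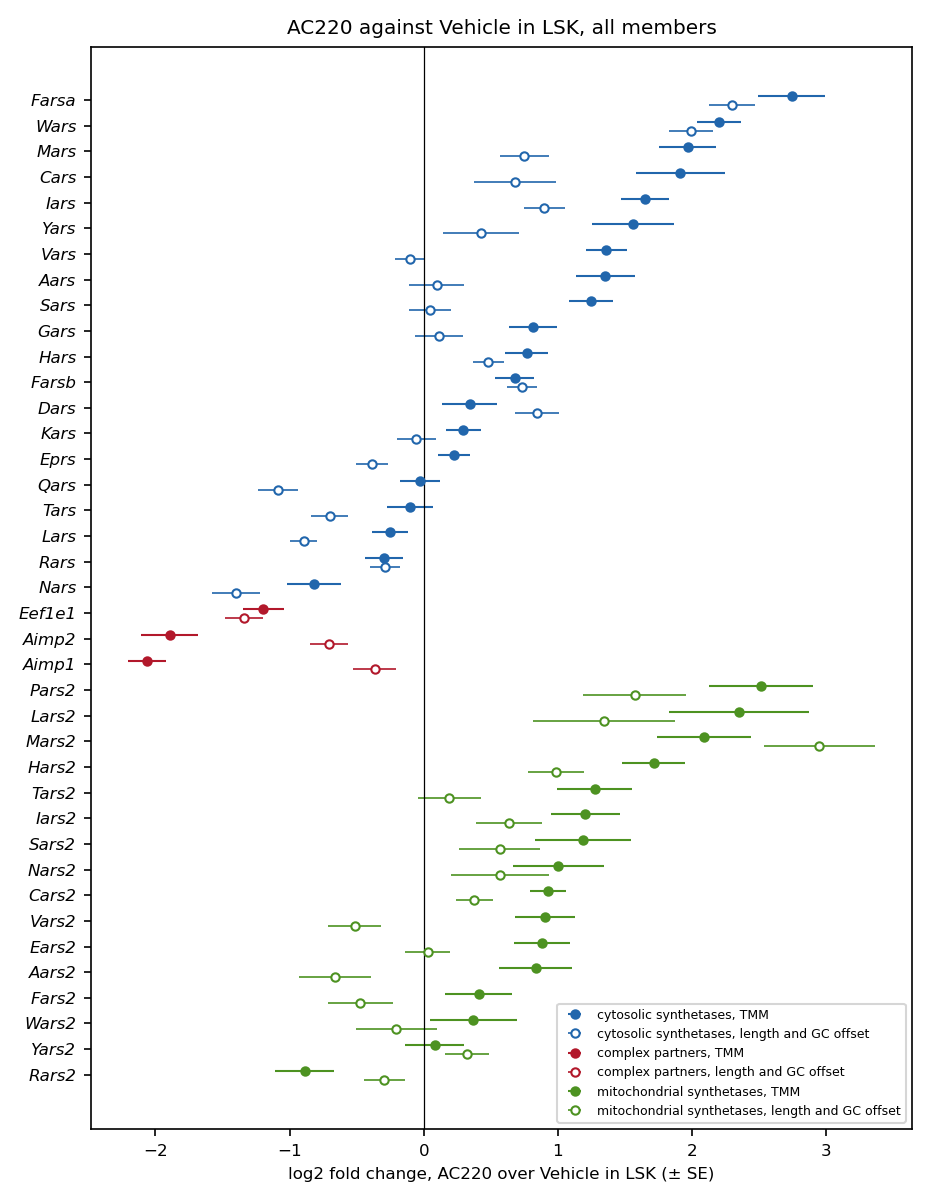
log2 fold change of AC220 over vehicle in LSK for the 39 members by role, with bars for the SE, filled points from the main fit and open points from the fit with a length and GC offset. Farsa (2.74 and 2.30) and Wars (2.2 and 1.99) lie close in both fits, and Vars, Vars2 and Aars2 cross zero.

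For 13 amino acids the members hold a cytosolic and a mitochondrial enzyme of the same name. In 7 pairs (alanine, cysteine, histidine, isoleucine, methionine, serine and valine) both genes rose with AC220. The cytosolic gene alone rose for Wars and Yars, and the mitochondrial gene alone for Lars2 and Tars2. For asparagine the genes were called in opposite directions, with Nars at -0.82 and Nars2 at 1.004 on the log2 scale, and for arginine Rars2 alone fell. The same 7 pairs were called higher for both genes with the combination. With the offset both genes kept that call with AC220 for histidine, isoleucine and methionine, and with the combination for these and cysteine. With AC220 and the offset Nars2, Rars2, Lars2 and Tars2 were not called, and Vars2 was called lower. Of all genes tested, 54.9% were called with AC220 in the main fit and 43.5% with the offset.

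The summed level of the 20 cytosolic members was 3647 ± 134 CPM with AC220 and 2289 ± 134 CPM with vehicle (SD, n = 4 each). With the offset the sums were 2818 ± 72.7 CPM with AC220 and 2845 ± 125 CPM with vehicle, and the groups overlapped. The mitochondrial sum without Lars2 was 636 ± 62.2 CPM with AC220 and 373 ± 21.4 CPM with vehicle. With the offset this sum was 515 ± 43.1 and 449 ± 23.5 CPM, and the groups overlapped. The partner sum was 136 ± 14.0 CPM with AC220 and 466 ± 47.6 CPM with vehicle, and with the offset 205 ± 14.2 and 340 ± 26.1 CPM, with no overlap in either scaling. The cytosolic sum per kilobase of transcript was 1284 ± 60.0 CPM with AC220 and 799 ± 38.2 CPM with vehicle.

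By level per kilobase in vehicle LSK the order began with Aimp1 (174 ± 31.97 CPM per kilobase, SD, n = 4), Aimp2 (147 ± 41.4), Nars (146 ± 46.4), Lars2 (104 ± 37.6) and Kars (89.2 ± 9.16), and the ranges over libraries of Aimp1, Aimp2 and Nars overlapped. With AC220 it began with Lars2 (530 ± 217), Vars (149 ± 14.9), Farsa (139 ± 25.4), Kars (110 ± 3.59) and Gars (93.5 ± 4.95), and Vars and Farsa overlapped. Farsa was 19th of 39 in vehicle and 3rd with AC220. Mars2 was last in vehicle, at 0.364 ± 0.0637 CPM per kilobase. These are descriptions of level, and in bulk libraries fewer cells of a type and less RNA per cell cannot be told apart.

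Transcript length moved with the result. Every LSK library with AC220 or the combination had a smaller share of counts from short transcripts than any Lys05 or vehicle library. In LSK an effect of AC220 on these genes and a difference in library composition that goes with AC220 cannot be told apart. Over all genes tested the median log2 fold change of AC220 over vehicle in LSK was -1.69 for transcripts under 1000 bases, -0.56 from 1000 to under 2000, 0.70 from 2000 to under 4000 and 0.50 for 4000 and over. With the offset these medians were 0.33, 0.13, -0.01 and 0.01. The members had medians of 0.77 (9 genes), 0.83 (21 genes) and 1.21 (9 genes) in the last 3 of these classes in the main fit, and 0 members were under 1000 bases. In the class from 1000 to under 2000 bases Farsa (1826 bases) and Wars (1824 bases) stood at 2.74 and 2.2, and Aimp1 and Aimp2 at -2.06 and -1.90.

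**Figure D3:**
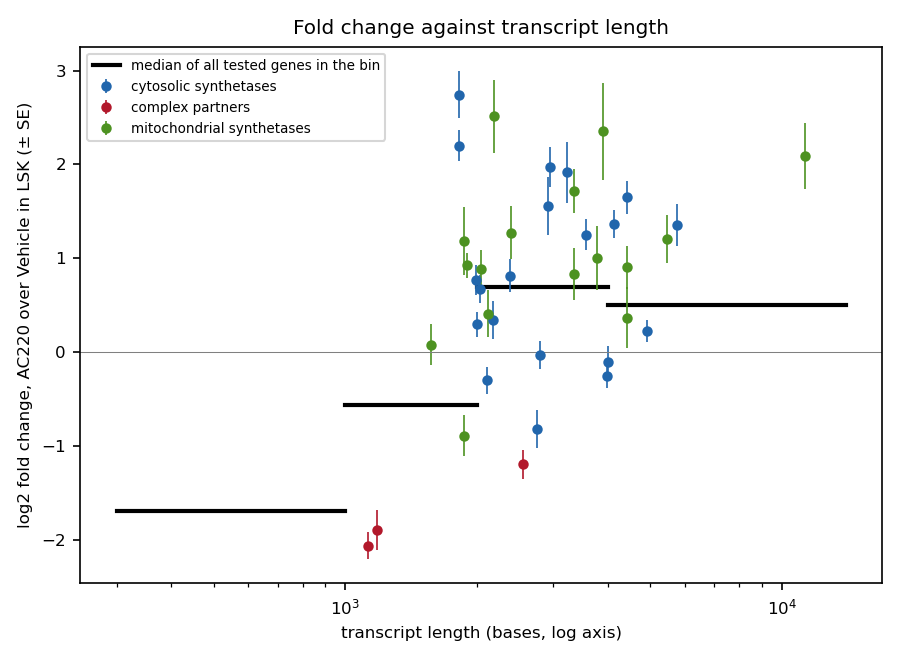
log2 fold change of AC220 over vehicle in LSK (vertical axis, bars for the SE) against transcript length in bases (log axis) for the 39 members. Black lines give the median of all tested genes in each length class, from -1.69 under 1000 bases to 0.70 from 2000 to under 4000, and Farsa and Wars lie above the line of their class.

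Markers of other cells also differed between these groups. Over all 32 libraries scaled together, the 7 dendritic cell markers summed to 3518 to 15980 CPM with AC220 and 15450 to 57280 CPM with vehicle in LSK, and all 7 reached 1 CPM in both groups. The 7 mature neutrophil markers summed to 1024 to 1959 CPM with AC220 and 2901 to 7409 CPM with vehicle, and all 7 reached 1 CPM in both groups. The T and NK cell list summed to 277 to 488 CPM with AC220, where 2 of 6 markers reached 1 CPM, and 1299 to 1996 CPM with vehicle, where 4 did and Cd3e was at 0 in every library. The 5 B cell markers, of which 1 reached 1 CPM in each group, summed to 32.01 to 48.4 CPM with AC220 and 99.2 to 156 CPM with vehicle. The 6 macrophage markers summed to 12.1 to 22.1 CPM with AC220, where 5 reached 1 CPM, and 2.34 to 15.2 CPM with vehicle, where 4 did and Cd5l was at 0. The 6 erythroid markers summed to 104 to 283 CPM with AC220, where 5 reached 1 CPM, and 105 to 408 CPM with vehicle, where 6 did. The 5 stromal markers summed to 35.7 to 45.5 CPM with AC220, where 1 reached 1 CPM, and 11.1 to 19.5 CPM with vehicle, where 2 did. The LSK gate markers summed to 974 to 1383 CPM with AC220 and 475 to 543 CPM with vehicle, without overlap, and 19250 to 21591 genes were detected with AC220 and 16294 to 17468 with vehicle. The part of these cells, of the gate markers and of the number of genes in the synthetase levels was not tested.

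Genes around the synthetases were counted from 5 lists chosen with earlier results known, against the same background of 54.9%. Of 11 charging helper and editing genes, 2 rose and 6 fell with AC220 in LSK, with a median log2 fold change of -0.75. Those that fell included Prorsd1 (-3.12 ± 0.15), Ptrh2, a peptidyl-tRNA hydrolase (-1.83 ± 0.14), and the D-aminoacyl-tRNA deacylases Dtd1 (-1.66 ± 0.17) and Dtd2 (-1.28 ± 0.19). Of these, Prorsd1 was not called with the offset (-0.26 ± 0.13), and Ptrh2 (-1.92 ± 0.13), Dtd1 (-0.68 ± 0.14) and Dtd2 (-1.76 ± 0.18) were. Of 10 elongation factor genes 4 rose and 4 fell. Tufm, the mitochondrial factor that delivers charged tRNA, rose by 2.03 ± 0.20 (190 against 46.6 CPM, 1.92 ± 0.13 with the offset), and Eef1a1, which does so in the cytosol, had 5159 CPM with AC220 and 5462 CPM with vehicle (-0.08 ± 0.13, edgeR adjusted p = 0.611). Eef1b2, an exchange factor for Eef1a1, fell by 2.13 ± 0.22, and Tsfm, the exchange factor for Tufm, by 1.28 ± 0.17. With the offset Eef1b2 had -1.95 ± 0.27 and Tsfm -0.14 ± 0.11, which was not called. Eef2, the translocation factor, rose by 0.75 ± 0.10 and had -0.66 ± 0.11 with the offset, which called it lower.

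Of 15 amino acid response genes 5 rose and 4 fell. Gcn1l1, the activator of GCN2, rose by 1.74 ± 0.15, and Eif2ak4, which encodes GCN2, by 0.90 ± 0.19. With the offset Gcn1l1 was called at 0.64 ± 0.12, and Eif2ak4 was not (-0.03 ± 0.20). Atf4 had 146 CPM with AC220 and 87.8 CPM with vehicle (0.74 ± 0.29, edgeR adjusted p = 0.039) and was not called with the offset (0.55 ± 0.34). Cebpg (-1.0 ± 0.15), Eif2s1 (-1.29 ± 0.19) and Nupr1 (-3.89 ± 0.59) fell, and with the offset they were called at -1.17 ± 0.16, -1.25 ± 0.22 and -2.22 ± 0.58 in that order. The ATF4 targets Trib3 (1.45 ± 1.11) and Ddit3 (-0.13 ± 0.48) did not pass the test. With the offset Ddit3, which overlaps Mars on the opposite strand by 68 bases, was called higher (1.60 ± 0.47). Asns, the asparagine synthetase gene and a target of ATF4, had 28.3 CPM with AC220 and 22.8 CPM with vehicle (0.31 ± 0.43, edgeR adjusted p = 0.573). Of 12 amino acid synthesis genes 8 rose and 1 fell, among them Aldh18a1 (1.62 ± 0.17), the serine hydroxymethyltransferases Shmt1 (1.61 ± 0.22) and Shmt2 (1.58 ± 0.24), and Psat1 (0.87 ± 0.19). Of 10 amino acid transporter genes 6 rose and 1 fell, among them Slc7a5 (1.80 ± 0.24), Slc38a1 (1.37 ± 0.18), Slc1a5 (1.01 ± 0.21) and Slc38a2 (0.62 ± 0.14). Of these 8 synthesis and transporter genes, the offset called Shmt1 (0.78 ± 0.20), Shmt2 (0.49 ± 0.17), Slc38a1 (0.84 ± 0.17) and Slc38a2 (0.40 ± 0.12) higher. It did not call Aldh18a1 (0.36 ± 0.16), Psat1 (0.20 ± 0.16), Slc7a5 (0.41 ± 0.19) or Slc1a5 (-0.30 ± 0.17). With the offset, 2 of 15 response genes were higher and 4 lower, 4 of 12 synthesis genes higher and 1 lower, and 2 of 10 transporter genes higher and 1 lower.

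The 5 cytosolic members whose promoters hold the TGATGNAA core included 4 that rose with AC220 in LSK (Aars, Gars, Iars and Yars) and Tars, which had -0.10 ± 0.17 and did not pass. Of the 8 matched cytosolic members without the core, 4 rose (Farsa, Farsb, Mars and Sars). With the offset 1 of the 5 was higher (Iars) and 1 lower (Tars), and 4 of the 8 were higher and 2 lower. Of all genes tested, 54.9% were called in the main fit and 43.5% with the offset.

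The combination against vehicle in LSK called 26 members higher and 5 lower, 79.5% of the 39, against 51.8% of all genes called, 28.3% higher and 23.6% lower. This comparison shares its vehicle libraries with that of AC220. By role 14 of 20 cytosolic genes rose and 1 fell, the 3 partners fell, and 12 of 16 mitochondrial genes rose and 1 fell. With the offset 14 members were higher and 7 lower, beside 42.2% of all genes called. Farsa had 214, 319, 332 and 337 CPM with the combination (2.99 ± 0.25 over vehicle on the log2 scale, edgeR adjusted p = 4.97e-08, and 2.53 ± 0.17 with the offset). Wars had 120, 149, 176 and 157 CPM (2.16 ± 0.16, edgeR adjusted p = 1.46e-08, and 1.89 ± 0.16 with the offset). Dars, the aspartyl enzyme, and Kars were called higher with the combination, at 0.61 ± 0.21 and 0.49 ± 0.13. With the offset Dars had 0.90 ± 0.17, and Kars had 0.07 ± 0.14 and was not called (edgeR adjusted p = 0.748). Dars lost its call without combination library 3 or vehicle library 1 or 2 in turn, at adjusted p of 0.0603 to 0.0755. Nars had 231, 284, 352 and 272 CPM (-0.50 ± 0.20, edgeR adjusted p = 0.0463, and -1.14 ± 0.18 with the offset), which overlapped with vehicle. Nars lost its call without combination library 1, 2 or 4, vehicle library 1 or 2, any of the AC220 libraries or Lys05 library 4 in turn, at adjusted p of 0.0541 to 0.148. Aimp1 had 71.2, 62.4, 67.8 and 56.4 CPM and fell by 1.61 ± 0.14, and with the offset it had -0.19 ± 0.16 and was not called. Lars2 had 9593, 1906, 1434 and 1801 CPM with the combination (3.19 ± 0.54), with 2.10 without library 1 and 2.37 ± 0.55 with the offset. In the combination and vehicle groups the dendritic cell markers summed to 437 to 4526 CPM and 15450 to 57280 CPM. The neutrophil markers summed to 1116 to 3095 CPM and 2901 to 7409 CPM, and the LSK gate markers to 1121 to 1285 CPM and 475 to 543 CPM. In the same order the T and NK cell markers summed to 455 to 595 CPM and 1299 to 1996 CPM, and the B cell markers to 40.1 to 62.7 CPM and 99.2 to 156 CPM. The macrophage markers summed to 24.0 to 36.3 CPM and 2.34 to 15.2 CPM, and the stromal markers to 31.15 to 64.4 CPM and 11.1 to 19.5 CPM. The erythroid sums overlapped. The part of these cells in the synthetase levels was not tested.

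The combination against Lys05 in LSK called 26 members higher and 4 lower, 76.9%, against 49.5% of all genes. With the offset 13 were higher and 10 lower, against 39% of all genes. Farsa had a log2 fold change of 2.19 ± 0.24, Wars 1.94 ± 0.16 and Aimp2 -2.07 ± 0.21 in this comparison, and with the offset 2.02 ± 0.17, 1.87 ± 0.16 and -0.92 ± 0.14 in that order. Aimp1 had -1.41 ± 0.14, and 0.14 ± 0.16 with the offset.

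What Lys05 changes in the presence of AC220 was asked by the combination against AC220 in LSK. No member was called (0 of 39), beside 0.356% of all genes. By edgeR 3 members (7.69%) and 9.26% of all genes had an unadjusted p under 0.05. The members were Aimp1 (64.4 against 47.1 CPM, 0.45 ± 0.14), Eef1e1 (57.2 against 41.9 CPM, 0.45 ± 0.15) and Rars (127 against 99.6 CPM, 0.35 ± 0.14). With the offset 0 members and 0.0% of all genes were called, with 1 member at an unadjusted p under 0.05. DESeq2 called 1 member, Aimp1, higher (adjusted p = 0.0421), beside 2.26% of all genes. limma's voom with quality weights called 6 higher (Aimp1, Eef1e1, Farsb, Hars, Kars and Rars) and 1 (Vars2) lower, beside 13.7% of all genes. In the interaction of Lys05 and AC220 in LSK, 0 members and 0.0% of all genes were called by edgeR, with 3 members and 10.5% of all genes at an unadjusted p under 0.05. DESeq2 called 0 members (0.623% of all genes), voom 0 (0.0%) and edgeR with the offset 0 (0.0%), the last with 4 members at an unadjusted p under 0.05.

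Lys05 against vehicle in LSK called 0 members and 0.0% of all genes by edgeR, with 12 members (30.8%) and 17.3% of all genes at an unadjusted p under 0.05. DESeq2 called Cars2, Farsa and Yars2 higher and Vars2 lower, beside 3.86% of all genes, and voom called 0, beside 0.0%. Cars2, the mitochondrial cysteinyl enzyme, had 27.3, 28.6, 28.7 and 29.4 CPM with Lys05, against 16.8, 15.5, 18 and 17 CPM with vehicle (0.76 ± 0.13, edgeR adjusted p = 0.0739). Vars2 had 15.4, 9.07, 11.2 and 11 CPM with Lys05, against 34.4, 21.8, 19.9 and 15.7 CPM with vehicle (-0.98 ± 0.23, edgeR adjusted p = 0.0937). These were the members whose Lys05 and vehicle groups did not overlap, 2 of 39 (5.13%), against 4.18% of all genes.

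In GMP no member was called by edgeR in any of the 5 contrasts between treatments or in the interaction. All genes gave 0.0% called in AC220 against vehicle, the combination against vehicle, the combination against Lys05, Lys05 against vehicle and the interaction, and 0.00686% in the combination against AC220. Members at an unadjusted p under 0.05 by edgeR numbered 5, 8, 7, 0, 2 and 5 in that order, and 1386, 1601, 1786, 159, 1287 and 2035 of all 14572 genes tested in GMP were at such a p. DESeq2 called 3, 2, 4, 0, 1 and 1 members in that order, beside 1.94%, 2.55%, 3.09%, 0.0137%, 1.65% and 5.61% of all genes. The voom fit called 3, 0, 3, 2, 0 and 0 members, beside 1.72%, 0.0137%, 3.51%, 5.19%, 0.00686% and 0.0% of all genes. In counts of low values, 0 to 6 of the 39 members were under 1 CPM in a GMP library and 0 in every LSK library.

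Nars, Aimp1 and Lars had higher values in GMP with AC220, at an edgeR adjusted p of 0.299 for each. Nars had 1231, 788, 1005 and 490 CPM with AC220 in GMP, against 493, 319, 322 and 276 CPM with vehicle (1.32 ± 0.35 on the log2 scale). The lowest AC220 value was just under the highest vehicle value. Aimp1 had 237, 215, 381 and 148 CPM with AC220, against 45.9, 61.7, 104 and 131 CPM with vehicle (1.52 ± 0.35), without overlap. Lars, the leucyl enzyme of the cytosol, had 275, 224, 189 and 140 CPM with AC220, against 135, 67.7, 78.5 and 67.8 CPM with vehicle (1.24 ± 0.36), without overlap. DESeq2 called these 3 genes higher (adjusted p = 0.0331 for Nars, 0.0298 for Aimp1 and 0.0286 for Lars). In all, 5 members of 39 (Aimp1, Eprs, Hars, Kars and Lars) did not overlap between AC220 and vehicle in GMP, against 6.88% of all genes, and in LSK 30 did not, against 51.7%.

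The summed cytosolic level in GMP was 2904 ± 915 CPM with the combination, 2666 ± 371 CPM with AC220, 1587 ± 169 CPM with Lys05 and 1542 ± 141 CPM with vehicle (SD, n = 4 each). The 4 AC220 libraries (2183 to 3025 CPM) lay above the 4 vehicle libraries (1373 to 1705 CPM). Of these sums Nars alone had a mean of 878.5 CPM with AC220, 1152 CPM with the combination and 352.6 CPM with vehicle. Sums without Nars were not made, and no cytosolic member was called in GMP by edgeR. With the offset the AC220 sums were 2398 ± 313 CPM and the vehicle sums 1484 ± 148 CPM. The mitochondrial sum without Lars2 was 236 ± 68.6 CPM with AC220 and 249 ± 55.0 CPM with vehicle in GMP.

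The difference of the AC220 effect between LSK and GMP was tested as 1 term over all 32 libraries. It was called for 10 of 39 members (25.6%), against 16.8% of all genes. The AC220 effect was lower in LSK for Aimp1 (-3.34 ± 0.39, edgeR adjusted p = 1.82e-07), Nars (-1.96 ± 0.37, edgeR adjusted p = 0.000278) and Lars (-1.34 ± 0.34, edgeR adjusted p = 0.00647). For Aimp1 and Nars the AC220 group was lower than vehicle in LSK and higher in GMP. The effect was higher in LSK for Lars2 (4.15 ± 0.80), Mars2 (3.93 ± 1.24), Farsa (3.01 ± 0.81), Cars (2.81 ± 0.77), Mars (2.69 ± 0.68), Wars (2.33 ± 0.61) and Vars2 (1.60 ± 0.49). With the offset, Aimp1, Nars, Lars, Farsa, Wars, Lars2 and Mars2 kept their call and direction. The offset called 4 higher and 4 lower, beside 11% of all genes called, and moved the member median difference to -0.17, against 0.97 in the main fit. Mars2 lost its call when any 1 of 6 libraries was left out: vehicle 1 or 3 of LSK, or AC220 2 or 3 or vehicle 3 or 4 of GMP (adjusted p of 0.0501 to 0.0589). Vars2 lost its call without vehicle 4 of LSK (adjusted p = 0.0573) and without vehicle 3 of GMP (adjusted p = 0.0599).

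**Figure D4:**
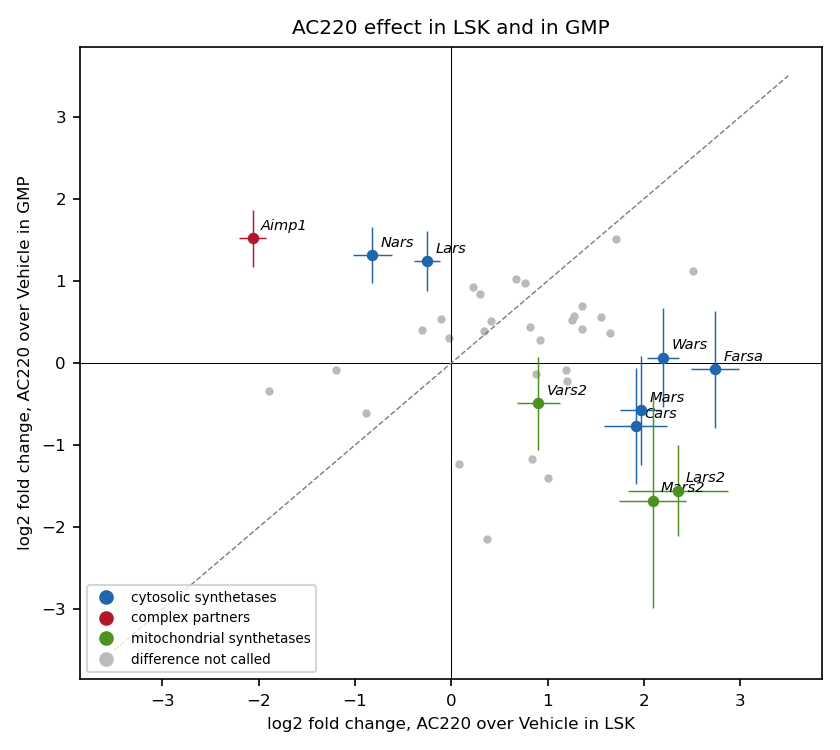
log2 fold change of AC220 over vehicle in LSK (horizontal axis) and in GMP (vertical axis) for the 39 members, with SE bars and names for the 10 whose difference was called and a dashed line of equal change. Aimp1, Nars and Lars lie at the upper left, and Farsa, Wars, Mars, Cars, Vars2, Lars2 and Mars2 lie right of the line.

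The same difference for the combination was called for 9 members (23.1%), against 12.7% of all genes, and shares the vehicle libraries. Aimp1 (-3.29 ± 0.39) and Nars (-2.10 ± 0.37) were again lower in LSK. Pars2 (5.21 ± 1.45), Lars2 (4.67 ± 0.81), Mars (2.92 ± 0.68), Farsa (2.55 ± 0.81), Yars2 (2.48 ± 0.80), Iars (2.23 ± 0.53) and Dars (1.88 ± 0.44) were higher in LSK. With the offset Aimp1, Nars, Dars, Iars and Lars2 kept their call and direction. The offset called 3 higher and 4 lower, beside 8.95% of all genes called, and moved the member median difference to -0.02, against 0.62 in the main fit. Farsa and Yars2 were the members that lost their call when single libraries were left out, at adjusted p of up to 0.0721 for Farsa and 0.122 for Yars2. For Farsa these were combination 2, 3 or 4 or vehicle 2 of LSK and combination 2 or vehicle 3 or 4 of GMP. For Yars2 they were combination 2, 3 or 4 or any vehicle library of LSK and combination 1 or 2 or vehicle 2 or 4 of GMP. Lars2 had 3.59 without LSK combination library 1. Dars had 23.0, 23.5, 9.76 and 29.2 CPM with the combination in GMP, against 70.3, 35.9, 30.5 and 54.1 CPM with vehicle, without overlap (-1.16 ± 0.44, edgeR adjusted p = 0.354). Pars2 had 0.0, 0.164, 1.19 and 0.0290 CPM with the combination in GMP, against 0.475, 1.62, 3.80 and 3.34 CPM with vehicle, so its difference rests on few counts. Without GMP combination library 3, which stood apart, 10 members were called. In GMP the macrophage markers summed to 98.7 to 1387 CPM with the combination, where 6 of 6 reached 1 CPM, and 12.7 to 38.9 CPM with vehicle, where 5 did. The dendritic cell markers summed to 208 to 1749 CPM with the combination and 3815 to 13960 CPM with vehicle, and the erythroid markers to 288 to 1774 CPM and 71.0 to 805 CPM. The neutrophil markers summed to 5317 to 9843 CPM with the combination and 4766 to 16840 CPM with vehicle, and the T and NK, B cell and stromal sums overlapped between these groups. The GMP gate markers summed to 28580 to 39740 CPM with the combination and 46490 to 54940 CPM with vehicle, without overlap. The part of these cells and gate markers in the synthetase levels of GMP was not tested. The Lys05 effect differed between cell types for 0 members and 0.0% of all genes by edgeR, with 0 members and 2.92% of all genes at an unadjusted p under 0.05 and 0 members called by DESeq2 (1.23% of all genes) and by voom (0.0292%).

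**Figure D5:**
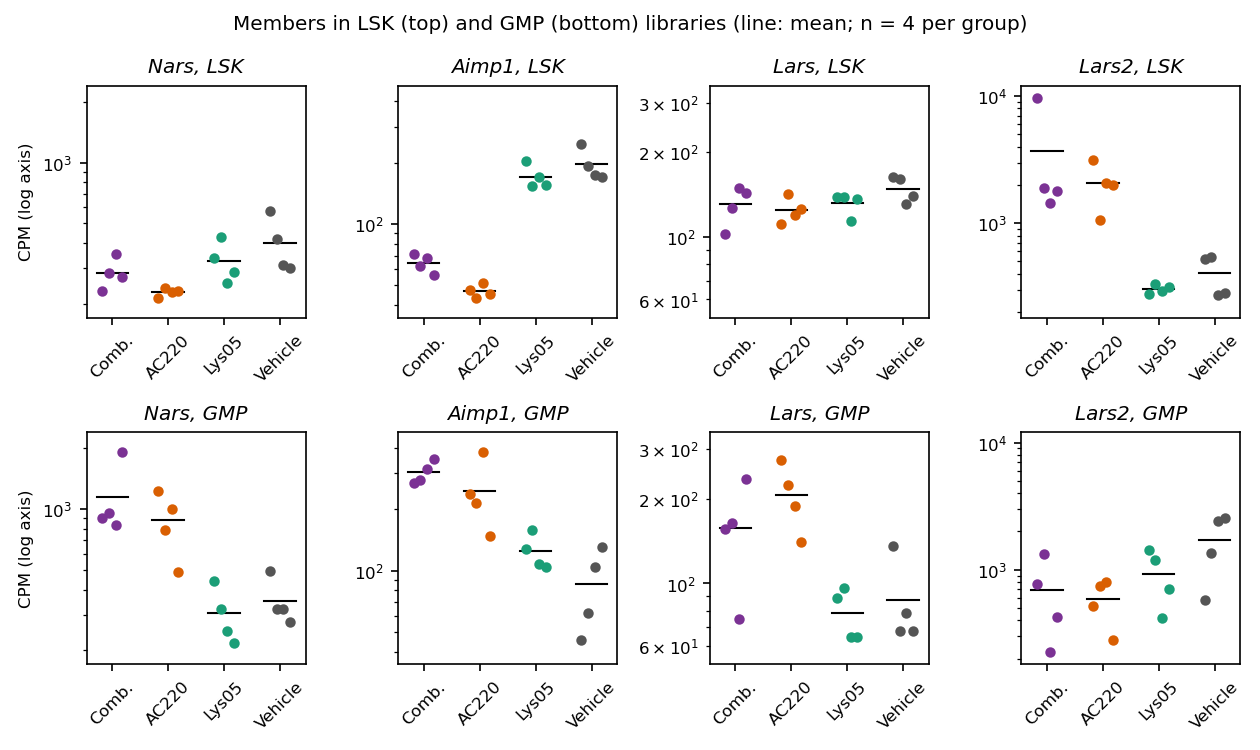
CPM (log axis, same range for a gene in both rows) of Nars, Aimp1, Lars and Lars2 in LSK (top) and GMP (bottom) libraries by treatment, with points for libraries and a line for the mean of 4. Aimp1 is lower with the combination and AC220 in LSK, where no AC220 library reaches a vehicle library, and has higher values in GMP, and Lars2 is higher with both treatments in LSK and has lower means with both in GMP.

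Between cell types under vehicle, 1 of 39 members (2.56%) was called, against 4.84% of all genes. It was Lars2, whose mean in LSK was 336 CPM, against 2162 CPM in GMP, with all 32 libraries scaled together (-2.69 ± 0.58, edgeR adjusted p = 0.00497). Under Lys05 Lars2 was also the called member, with a mean in LSK of 255 CPM, against 1171 CPM in GMP (-2.201 ± 0.568, edgeR adjusted p = 0.0217), against 4.54% of all genes. Lars2 lost that call without GMP Lys05 library 1 or 2 or any LSK Lys05 library in turn, and with the offset (edgeR adjusted p = 0.0549).

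Under AC220, 14 members were higher and 3 lower in LSK than in GMP, 43.6% of the 39, against 35.1% of all genes. Those lower in LSK were Nars (195 CPM in LSK, 958 CPM in GMP, -2.30 ± 0.27), Aimp1 (40.2 and 266 CPM, -2.73 ± 0.28) and Lars (107 and 227 CPM, -1.09 ± 0.24). Wars had 132 CPM in LSK, against 20.6 CPM in GMP (2.68 ± 0.45), and Farsa 217 CPM in LSK, against 37.4 CPM in GMP (2.53 ± 0.59). With the offset 4 members were higher and 5 lower, beside 29.5% of all genes, and the member median was 0.35, against 0.79 in the main fit. Nars (-2.92 ± 0.28), Aimp1 (-1.43 ± 0.35), Lars (-1.64 ± 0.23), Wars (2.08 ± 0.38) and Farsa (1.58 ± 0.51) kept their call and direction with it. Vars was called in opposite directions, at 0.87 in the main fit and at -0.80 ± 0.24 with the offset (edgeR adjusted p = 0.0134). Under the combination 12 were higher and 3 lower in LSK, 38.5%, against 28.9% of all genes, and the 3 lower were again Nars, Aimp1 and Lars. Lars (-0.68) lost its call without combination library 2 or 4 of GMP or combination library 1, 2 or 4 of LSK, at adjusted p of up to 0.171. With the offset 6 were higher and 6 lower, beside 26% of all genes, and the member median was -0.17, against 0.71 in the main fit. Dars had 131 CPM in LSK, against 24.2 CPM in GMP, under the combination (2.44 ± 0.33, and 2.18 ± 0.29 with the offset).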

How the data were processed

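RNA from sorted LSK and GMP cells was amplified with a SMARTer low-input kit and made into Nextera XT libraries, per the labels' protocols. The deposited values are raw counts per Ensembl gene. The submitters' processing notes name STAR 2.7.3a, HTSeq 0.11.2 and GRCm38. The strand setting and annotation release are not given in the sources used here. The 5 summary lines (15.2 to 30.9% of all counts) were left out. IDs were named by GENCODE M21. Replicates were numbered in accession order.

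Counts were fitted with edgeR 4.0.16 (R 4.3.3): filterByExpr, TMM, robust quasi-likelihood tests, adjusted over all genes, separately in LSK and GMP, and over all 32 libraries for comparisons of cell types. CPM are TMM-scaled within each fit. Alternatives were DESeq2 1.42.0, RLE size factors, no low-count filter, the compared groups alone, limma 3.58.1 voom with quality weights, an offset fitted per library on transcript length and GC content (splines, 5 degrees of freedom), and leaving out each library. The fits were also run on simulated counts that held no trend in transcript length or GC content. That run cannot show how the fits behave under the length shift seen in LSK. Members and lists were chosen with earlier results of these data known. All 39 members could be named, and of each other list up to 4 genes with the smallest p beside Atf4, Asns, Eif2ak4, Trib3, Ddit3 and Eef1a1. P-values rest on the spread between the 4 libraries of a group, labelled biological replicates, estimated jointly over all groups of a fit. The common coefficient of variation between replicates, beyond counting noise, was 0.475 in LSK, 1.06 in GMP and 0.885 over all 32 libraries. Comparisons of cell types therefore used 1 joint estimate for cell types of unlike spread. Some single items are not reported here.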

Additional observations from a re-analysis of the deposited data

Results flagged for a closer look

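Of 160 sets of 4 libraries tested for a value far from the others, 11 held one, and chance alone gives about 1 in 20. In LSK they were Farsa in combination library 1 (214 CPM, lowest), Lars2 in combination library 1 (9593 CPM, highest), Aimp2 in AC220 library 3 (52.1 CPM, highest), the partner sum in the same library (157 CPM, highest) and Lars in Lys05 library 3 (114 CPM, lowest). In GMP they were Nars in combination library 4 (1916 CPM, highest), Pars2 in combination library 3 (1.19 CPM, highest), Lars in vehicle library 1 (135 CPM, highest), and Cars2 in AC220 library 1 (59.1 CPM, highest), combination library 4 (59.0 CPM, highest) and Lys05 library 1 (34.2 CPM, highest).

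The AC220 effect differed between LSK and GMP by the interaction term, in log2 of LSK minus GMP, for Aimp1 (-3.34), Nars (-1.96), Lars (-1.34), Lars2 (4.15), Mars2 (3.93), Farsa (3.01), Cars (2.81), Mars (2.69), Wars (2.33) and Vars2 (1.60). The combination effect differed likewise for Aimp1 (-3.29), Nars (-2.10), Pars2 (5.21), Lars2 (4.67), Mars (2.92), Farsa (2.55), Yars2 (2.48), Iars (2.23) and Dars (1.88).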

How the results depend on the processing

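Scaling by length and GC content changed single members most, and counts of members moved in 8 comparisons with DESeq2, 8 with voom and 2 with the offset. A count was scored by the size of the change in its total, whatever the direction of the calls. AC220 against vehicle in LSK was therefore not among those 2, at 29 members called in the main fit and 21 with the offset. Its 24 higher and 5 lower became 12 higher and 9 lower, and the member median went from 0.883 to 0.113. Of 143 called values of single members the offset left 75 past the threshold in the same direction and 54 short of it, and turned 14. The turned log2 values, first for AC220 and then for the combination against vehicle in LSK, were Aars2 -0.66 and -0.53, Vars -0.10 and -0.12, and Vars2 -0.52 and -0.62, and the AC220 effect on Vars2 (LSK minus GMP) became -0.20. For the combination against Lys05 in LSK they were Aars -0.065, Aimp1 0.14, Eprs -0.33, Sars -0.051 and Vars -0.12, and for LSK against GMP Vars -0.795 under AC220 and Vars2 -0.32 under the combination. DESeq2 left 5 short of the threshold, RLE size factors 10, the compared groups alone 23, no low-count filter 10 and voom 7. DESeq2 called 4 members for Lys05 in LSK, 1 for the combination against AC220 in LSK, and in GMP 3 for AC220, 2 for the combination, 4 for the combination against Lys05, 1 for the combination against AC220 and 1 for the interaction. With voom 7 members were called for the combination against AC220 in LSK, and in GMP 3 for AC220, 3 for the combination against Lys05 and 2 for Lys05. The AC220 effect differed for 17 members with voom, beside 32.6% of all genes. Without the low-count filter the combination against Lys05 in GMP called 1. For LSK against GMP under AC220 the compared groups alone called 11 members, the offset 9 and voom 26, beside 33.3%, 29.5% and 43.6% of all genes. Under Lys05 DESeq2 called 2, the compared groups alone 2, the offset 0 and voom 6, beside 10.1%, 16.9%, 4.07% and 31.1% of all genes, and under vehicle the compared groups alone called 3 and voom 7, beside 5.56% and 25.4%. The voom fit moved the all-gene median of the AC220 effect difference to 1.02, against 0.345 in edgeR. The cause of these changes was not tested.

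Leaving out each library in turn gave 28 to 32 members for AC220, 27 to 31 for the combination and 26 to 33 for the combination against Lys05 in LSK. Lys05 in LSK gave 0 to 2, with 1 or 2 without Lys05 library 1 or 4 or vehicle library 3 or 4. The effect differences gave 9 to 12 for AC220 and 7 to 13 for the combination. Without single libraries 159 of 3136 values of called members fell short of the threshold, among them Aars2, Rars2 and Vars2 with the combination in LSK and Nars2 with AC220 in LSK. LSK against GMP gave 13 to 18 under AC220, 11 to 19 under the combination, 0 to 1 under Lys05 and 1 under vehicle. The combination against Lys05 in GMP gave 0 to 1, with 1 without GMP combination library 3, and the other comparisons gave 0. No paired analysis was possible because the labels give no replicate numbers. Members at few counts in GMP, such as Pars2, limit what depth can show there.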
